A study of Mus musculus with 8 samples.

Results

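Matrix metalloproteinases were examined in mouse skin as a family of 10 genes, namely Mmp2, Mmp3, Mmp9, Mmp10, Mmp11, Mmp12, Mmp13, Mmp14, Mmp15 and Mmp28. A gene was taken where the array annotation gave a probe set exactly 1 symbol and that symbol was a member, and 9 of the 10 were found among the 19935 genes tested. The annotation used here names no probe set for Mmp15, so no value is given for it. Each of the 9 had 1 probe set. The arrays, of the Affymetrix Mouse Gene 1.0 type, came from 4 Adam10 knockout and 4 wild-type mouse skin samples. The titles call the knockouts cKO, which usually stands for a conditional knockout. They also carry P numbers, 57 to 60 for wild types 1 to 4, 67 to 69 for knockouts 1 to 3 and 55 for knockout 4. What these numbers stand for is not said. For neither genotype do the sources used here give the strain or the age, and for the knockouts they do not give the deleted exons, the Cre driver or the cells that lost Adam10. Some labels say skin and others say skin cells. Whether each sample is from a mouse of its own is not said, so the p-values cover the spread between samples, which may in part be technical.

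Matrix metalloproteinases are zinc enzymes that cut collagens, laminins, elastin and other matrix proteins, and also growth factors and receptors. They are made as inactive precursors, are switched on when the propeptide is cut away by other proteases, and are held in check by the tissue inhibitors of metalloproteinases (the Timp proteins) and Reck. Adam10 belongs to a neighbouring branch of the same protease superfamily and sheds proteins from the cell surface. In skin the membrane-bound Mmp14 and the gelatinase Mmp2 are largely made in the dermis, while Mmp9, Mmp10 and Mmp13 are best known from epidermis and dermis during wound repair.

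Many of these genes are textbook targets of AP-1, a dimer of Fos and Jun proteins. Its site was searched for here as TGANTCA, where N is any base. These letters read the same on both strands. Promoters were taken from RefSeq (build GRCm38.p6), which had an entry for 8 of the 10 members, all but Mmp2 and Mmp9. The letters occurred within the 250 bases before the start site in 4 of these 8 genes. Counted by entry that is 4 of 9, against 6.75% of all 32851 promoter entries of that length. The 4 genes were Mmp3, Mmp10, Mmp12, in 1 of its 2 entries, and Mmp13. The 120 bases before the start of each are shown, with TGANTCA in capitals, because these genes share the letters, and Mmp14 is shown beside them because its transcript level changed and its promoter entry does not hold them.
Mmp3 (chr9:7445702-7445821, plus strand): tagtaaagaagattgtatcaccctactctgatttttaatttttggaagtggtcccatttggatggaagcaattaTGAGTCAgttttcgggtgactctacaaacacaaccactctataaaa
Mmp10 (chr9:7502222-7502341, plus strand): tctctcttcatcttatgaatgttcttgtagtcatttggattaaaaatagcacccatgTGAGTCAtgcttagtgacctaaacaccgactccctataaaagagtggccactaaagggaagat
Mmp12 (chr9:7347254-7347373, plus strand): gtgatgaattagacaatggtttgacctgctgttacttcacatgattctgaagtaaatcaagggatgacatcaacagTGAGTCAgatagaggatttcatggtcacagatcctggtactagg
Mmp13 (chr9:7272394-7272513, plus strand): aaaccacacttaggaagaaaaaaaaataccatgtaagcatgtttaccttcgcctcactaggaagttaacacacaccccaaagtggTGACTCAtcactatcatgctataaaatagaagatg
Mmp14 (chr14:54431478-54431597, plus strand): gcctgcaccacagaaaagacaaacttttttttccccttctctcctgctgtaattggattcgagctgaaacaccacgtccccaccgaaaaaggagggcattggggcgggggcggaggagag
The first base of the TGANTCA letters lay at -46 from the start site in Mmp3, -63 in Mmp10, -44 in Mmp12 and -35 in Mmp13. A match is a run of letters and not a measured binding site.

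Values are log2 of the intensity of a probe set, and differences are knockout minus wild type on that scale. A call means an adjusted p below 0.05 in limma (Benjamini-Hochberg adjustment over all 19935 genes). Adam10 itself lay at 6.85, 7.00, 7.04 and 6.79 in knockouts 1 to 4 and at 7.39, 7.33, 7.06 and 7.34 in wild types 1 to 4. The difference of -0.36 (SE 0.11) had an adjusted p of 0.064 in limma and an exact two-sided permutation p of 0.0286, the smallest that 70 assignments of the arrays can give. Wild-type array 4 stood apart from the others, with a mean correlation of 0.969 with its group, against 0.981 to 0.993 on the other 7 arrays. The mean of 8 fibroblast markers on that array was 2.50 above its average over the 8 arrays, on wild-type array 3 it was 0.95 above, and on the other 6 arrays it was 0.44 to 0.66 below. Genes of the Y chromosome (mean of Eif2s3y, Kdm5d and Uty) were at 5.27 to 5.64 in 2 of 4 knockouts and 3 of 4 wild types and at 2.08 to 2.40 in the others.

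Of the 9 measured members Mmp14 rose and the other 8 did not pass the test. That is 1 of 9, beside 8.75% of all genes called in either direction, 6.41% as higher and 2.34% as lower in the knockout. The median difference of the 9 was 0.045, against 0.0027 over all genes. The groups did not overlap for Mmp14, higher in the knockout (12.2% of all genes did so), and for Mmp2, lower in the knockout (5.86% of all genes). That is 2 of 9, beside 18.1% of all genes in either direction. Mmp2 and Mmp12 had an unadjusted p below 0.05 and missed the threshold after adjustment. Unadjusted p-values below 0.05 were common over all genes, so counts of them here and below are a description only. Plat, for example, had a p of 0.049 unadjusted and 0.20 adjusted in limma. The share of all genes below 0.05 was not counted.

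**Figure D1:**
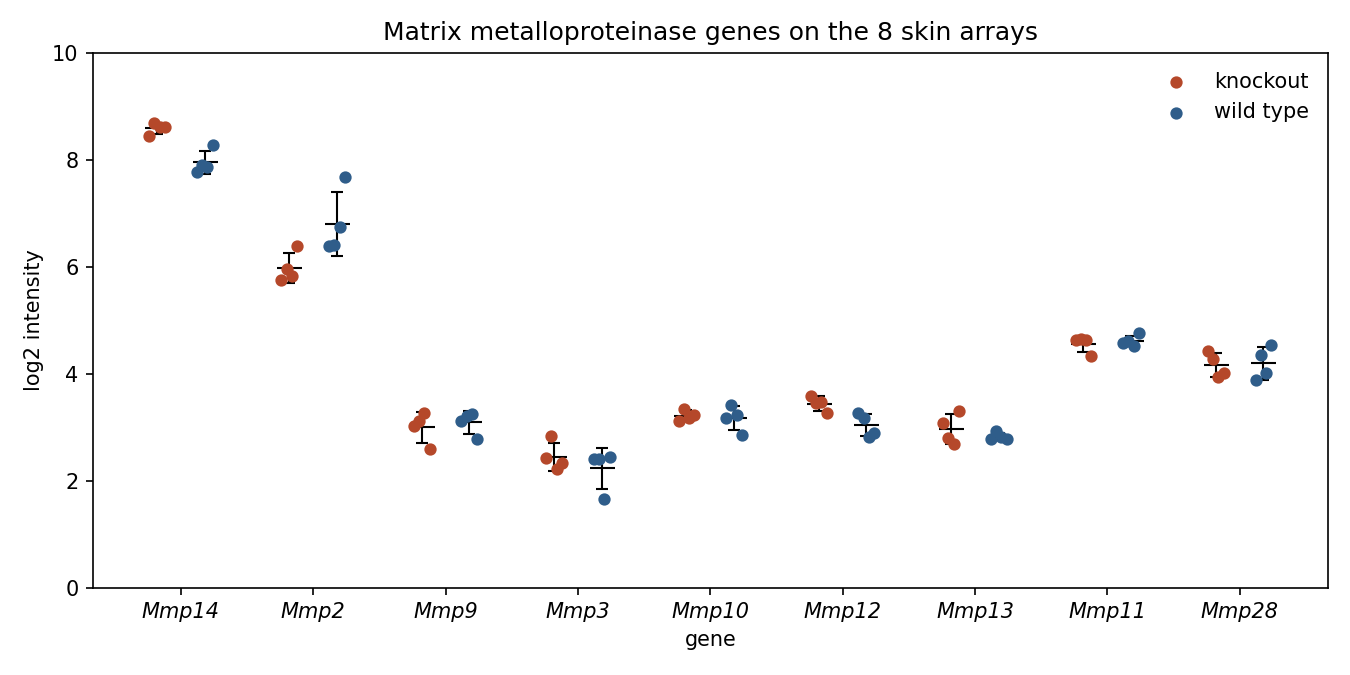
Log2 intensity (vertical axis) of the 9 measured metalloproteinase genes, with 1 point per array, knockout left and wild type right of each gene, and black bars for mean and SD (n = 4). Mmp14 and Mmp2 are the genes whose groups do not overlap, and heights of different genes depend on their probes and are not comparable.

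Mmp14 is a membrane-anchored collagenase that is activated by furin inside the cell and in turn activates the Mmp2 precursor at the surface. Its log2 intensity was 8.45, 8.68, 8.61 and 8.62 in knockouts 1 to 4, against 7.77, 7.91, 7.86 and 8.27 in wild types 1 to 4. Every knockout array was above every wild-type array, and the wild-type array nearest to the knockouts was array 4. The mean was 8.59 ± 0.098 in knockout and 7.95 ± 0.22 in wild-type skin (SD, n = 4), a difference of 0.64 (SE 0.12, 95% interval 0.37 to 0.91, adjusted p = 0.012 in limma), which is 55.7% more intensity in the knockout. The gene sat in the upper part of every array, above 93.8% to 97.4% of the genes measured there. In RNA from whole samples, a change in the share of a cell type and a change in RNA per cell cannot be told apart.

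The call held without wild-type arrays 3 and 4 (difference 0.75, adjusted p = 0.010 in limma, where 4.64% of all genes passed) and with the fibroblast markers as a covariate (0.80, adjusted p = 0.0050). It was lost without knockout array 2 (0.61, adjusted p = 0.052) and after cyclic loess between arrays (0.49, adjusted p = 0.069). It passed in 7 of the 8 fits that each omit 1 array, with differences of 0.58 to 0.74.

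Mmp2, the gelatinase that cuts denatured collagen and type IV collagen and is activated by Mmp14, pointed the other way. Its values were 5.76, 5.96, 5.82 and 6.39 in knockouts 1 to 4, against 6.40, 6.42, 6.74 and 7.67 in wild types 1 to 4. The groups did not overlap, but knockout array 4 and wild-type array 1 lay within 0.01 of each other and wild-type array 4 was far above the rest. The difference was -0.83 (SE 0.27, 95% interval -1.42 to -0.24) with an adjusted p of 0.082 in limma, so Mmp2 was not called.

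Mmp2 was highest on wild-type arrays 3 and 4, where the fibroblast markers were also highest. Without wild-type array 4 its difference was -0.54 (SE 0.16, adjusted p = 0.057 in limma), without wild-type arrays 3 and 4 it was -0.43 (SE 0.17, adjusted p = 0.20), and with the fibroblast markers as a covariate -0.35 (SE 0.17, adjusted p = 0.29). Among the 8 fibroblast markers Col1a1 ran from 6.37 to 6.75 in knockouts, against 6.63, 7.21, 9.17 and 10.93 in wild types 1 to 4. Pdgfra, a growth factor receptor of dermal fibroblasts, was likewise highest on wild-type arrays 3 and 4, at 3.02 to 3.39 in knockouts, against 3.40, 3.29, 4.66 and 6.51 in wild types 1 to 4. Dcn, the proteoglycan decorin, ran from 9.62 to 9.75 in knockouts, inside its wild-type range of 8.77 to 9.93. Of the 8 fibroblast markers 0 passed in limma, and 4 had an unadjusted p below 0.05. Calls came and went with the wild-type arrays. Without array 1, 2 of the markers passed as lower, while without array 4, or without arrays 3 and 4 (Dcn at 0.74, adjusted p = 0.016), 1 passed as higher. Over all genes 497 were called as lower without array 1, against 467 with all arrays. Those called as higher were 1350 without array 4 and 591 without arrays 3 and 4, against 1277.

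**Figure D2:**
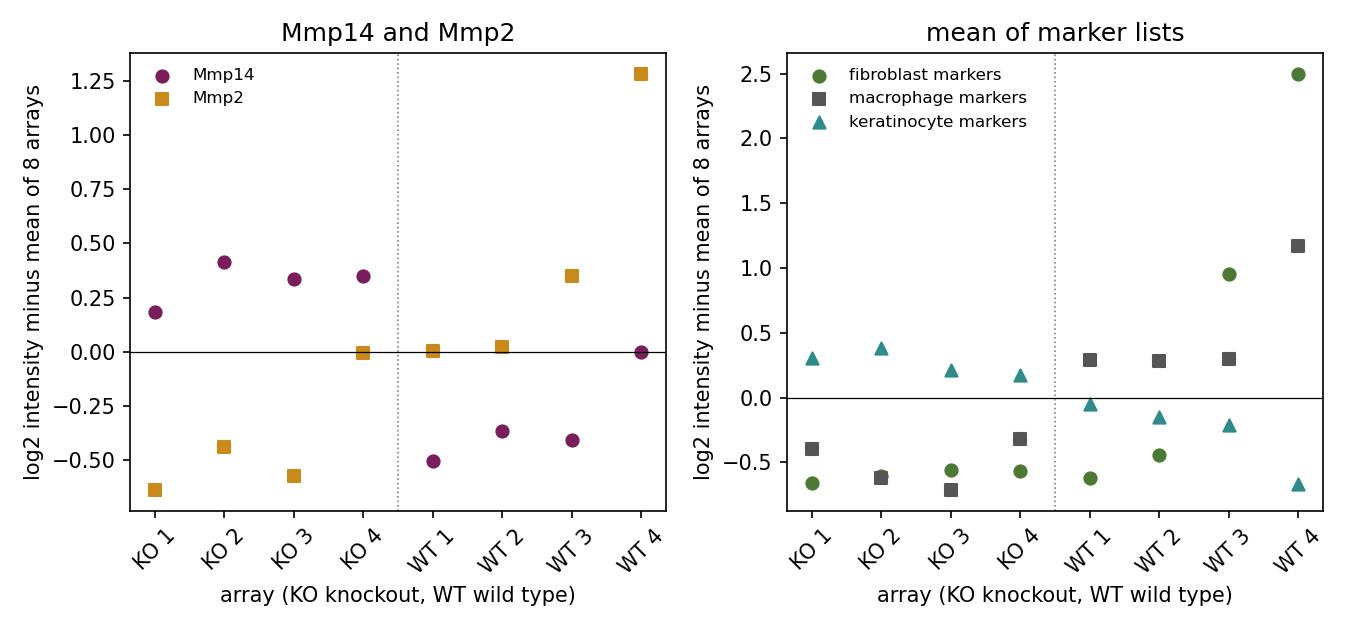
Log2 intensity minus the gene's mean over the 8 arrays (vertical axis) for Mmp14 and Mmp2 (left) and for the mean of the fibroblast, macrophage and keratinocyte marker lists (right), with 1 point per array, knockouts first. Mmp14 is above its mean on all 4 knockouts, while Mmp2 and the fibroblast markers peak on wild-type array 4.

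Mmp9, the other gelatinase, made by neutrophils, macrophages and migrating keratinocytes, gave 3.02, 3.11, 3.27 and 2.59 in knockouts 1 to 4 and 3.13, 3.22, 3.25 and 2.77 in wild types 1 to 4. Array 4 was the lowest in both genotypes and the groups overlapped over most of their range. The difference was -0.094 (SE 0.16, 95% interval -0.45 to 0.26, adjusted p = 0.76 in limma). Of 9 neutrophil markers 0 passed in limma and 1 had an unadjusted p below 0.05. That was Camp, the antimicrobial cathelicidin, with a difference of -0.45 (adjusted p = 0.065).

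The stromelysins Mmp3 and Mmp10 cut proteoglycans, laminin and other metalloproteinase precursors, and both carry the TGANTCA letters shown above. Mmp3 gave 2.42, 2.83, 2.23 and 2.32 in knockouts 1 to 4 and 2.41, 2.41, 1.66 and 2.44 in wild types 1 to 4. Its values lay above only 8.35% to 24.2% of the genes on their arrays, and wild-type array 3 was the lowest. The difference was 0.22 (SE 0.19, 95% interval -0.21 to 0.65, adjusted p = 0.52 in limma).

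Mmp10, which in wounds is made by keratinocytes at the migrating edge, gave 3.12, 3.34, 3.17 and 3.24 in knockouts 1 to 4 and 3.18, 3.42, 3.24 and 2.86 in wild types 1 to 4. The groups overlapped throughout, apart from the low wild-type array 4. The difference was 0.045 (SE 0.12, 95% interval -0.23 to 0.32, adjusted p = 0.86 in limma).

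Mmp12, the metalloelastase of macrophages, had 3.59, 3.45, 3.48 and 3.26 in knockouts 1 to 4, against 3.27, 3.16, 2.83 and 2.90 in wild types 1 to 4. The groups overlapped only at knockout array 4 and wild-type array 1, which lay within 0.01 of each other. The mean was 3.44 ± 0.14 in knockout and 3.04 ± 0.21 in wild-type skin (SD, n = 4), a difference of 0.40 (SE 0.12, 95% interval 0.13 to 0.68, adjusted p = 0.072 in limma). The adjusted p ranged from 0.042 without wild-type array 1 to 0.18 without wild-type array 3. It was 0.048 after quantile normalization and after cyclic loess, and without wild-type arrays 3 and 4 the difference was 0.23 (adjusted p = 0.37).

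Macrophage markers were lower in the knockout, opposite in sign to the Mmp12 difference. Of 9, 5 fell and 0 rose, beside 2.34% of all genes called as lower, and all 9 differences were below 0 with a median of -1.04. The list was chosen with earlier results of these data known, so this contrast is a description only. Lyz2, the macrophage lysozyme, fell by 2.42 and the complement chains C1qc, C1qb and C1qa fell by 1.17, 1.09 and 1.04. Csf1r, the receptor for the macrophage growth factor, fell by 0.81. Without wild-type arrays 3 and 4, 5 of the 9 fell and the median was -0.78. Over all genes 334 were then called as lower, against 467 with all arrays.

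Mmp13, the main interstitial collagenase of the mouse, gave 3.07, 2.80, 2.69 and 3.31 in knockouts 1 to 4 and 2.78, 2.92, 2.81 and 2.77 in wild types 1 to 4. Knockouts 1 and 4 were above all wild types and knockout 3 was below them. The difference was 0.14 (SE 0.14, 95% interval -0.16 to 0.44, adjusted p = 0.55 in limma). Its spread was wider in the knockouts (SD 0.28) than in the wild types (SD 0.069), a difference in spread that was not tested.

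Mmp11 and Mmp28 are secreted enzymes that furin activates before release. Mmp11, known from the stroma around remodelling epithelium, gave 4.63, 4.64, 4.64 and 4.33 in knockouts 1 to 4 and 4.58, 4.61, 4.53 and 4.76 in wild types 1 to 4. Knockout array 4 lay below the other 7 arrays, and the difference was -0.055 (SE 0.10, 95% interval -0.29 to 0.18, adjusted p = 0.78 in limma). Mmp28, or epilysin, a metalloproteinase of keratinocytes, gave 4.42, 4.27, 3.93 and 4.01 in knockouts 1 to 4 and 3.88, 4.35, 4.01 and 4.53 in wild types 1 to 4. The ranges lay over each other, and the difference was -0.035 (SE 0.16, 95% interval -0.40 to 0.33, adjusted p = 0.92 in limma).

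The 95% intervals give what these 8 arrays could leave undetected. For Mmp10 and Mmp11 they reach no further than 0.32 in either direction, while for Mmp3 a rise of up to 0.65 lies within the interval. Mmp3, Mmp9, Mmp10, Mmp12 and Mmp13 lay in the lower part of their arrays, above 8.35% to 36.6% of the genes. The files hold no detection calls, so whether a transcript was above background there is not known, and a change near background is compressed.

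The other 13 metalloproteinase genes of the family gave 0 calls in limma, and 1 had an unadjusted p below 0.05. That was Mmp16, a membrane-anchored relative of Mmp14, with 2.35, 2.45, 2.50 and 2.44 in knockouts 1 to 4, against 2.60, 2.64, 2.88 and 3.28 in wild types 1 to 4. Its groups did not overlap, and the difference was -0.42 (SE 0.14, adjusted p = 0.10 in limma). Over all 22 measured family members 1 was called, 8 differences were above 0 and 14 below, and the median was -0.052.

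**Figure D3:**
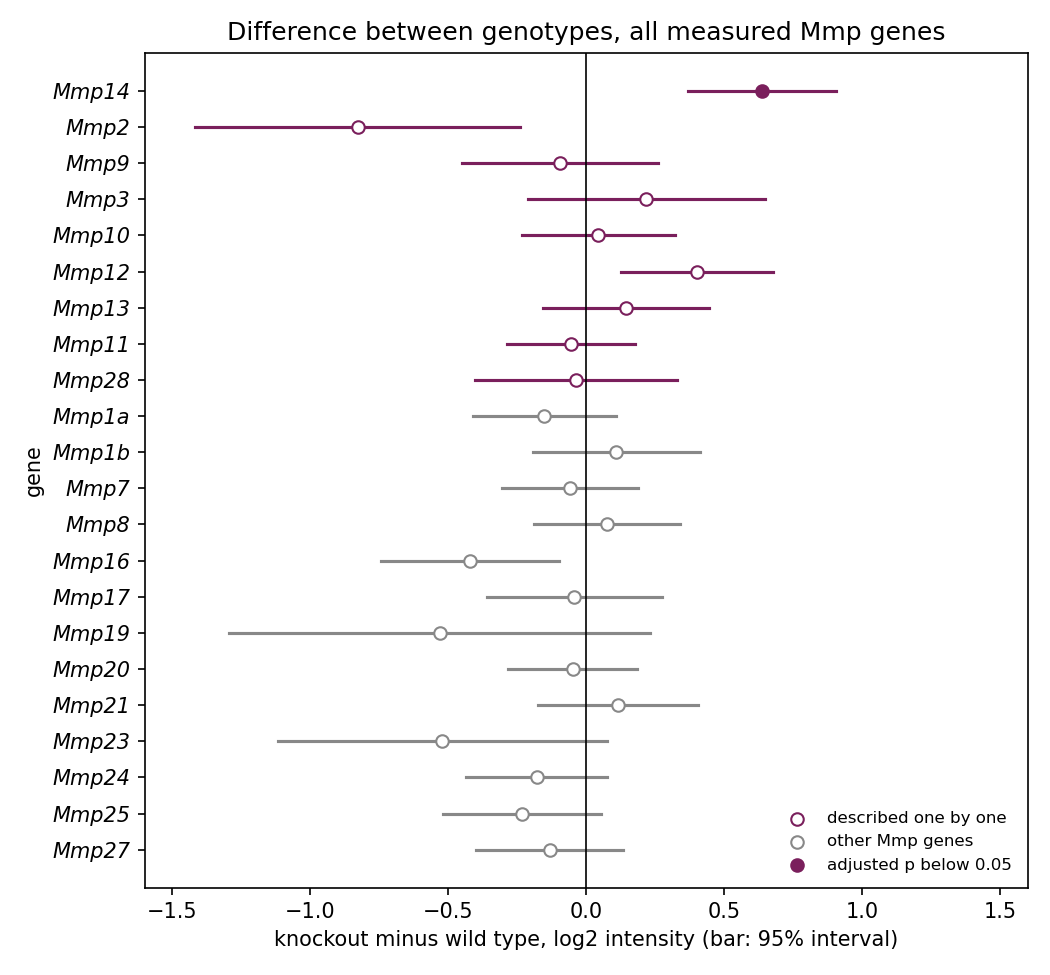
Difference between knockout and wild type in log2 intensity (horizontal axis) with its 95% interval for all 22 measured metalloproteinase genes, the 9 described one by one on top. The filled point is the gene with an adjusted p below 0.05, Mmp14 at 0.64, and the intervals of Mmp2, Mmp12 and Mmp16 also lie off 0.

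Mouse chromosome 9 carries 10 metalloproteinase genes side by side, in the order Mmp13, Mmp12, Mmp1b, Mmp3, Mmp1a, Mmp10, Mmp8, Mmp27, Mmp20 and Mmp7, with no other protein-coding gene of RefSeq between them. All 10 were measured, and 0 passed in limma, with Mmp12 alone at an unadjusted p below 0.05. Their differences ran from -0.15 for Mmp1a to 0.40 for Mmp12, which had the lowest adjusted p of the 10 (0.072). The 4 members with TGANTCA in their promoter entry lie in this cluster, at differences of 0.045 to 0.40. So do the 4 other metalloproteinase genes with the letters in an entry. Their differences lay on both sides of 0, at -0.15 for Mmp1a, 0.11 for Mmp1b, -0.048 for Mmp20 and -0.057 for Mmp7. Mmp20 matched as TGAATCA, and Mmp1a, Mmp1b and Mmp7 as TGAGTCA.

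AP-1 and Ets factors, which bind metalloproteinase promoters and include the proteins that form AP-1, were mostly higher in the knockout. Of 12, 8 rose and 0 fell, beside 6.41% of all genes called as higher, and the median was 0.59. This list, like the others, was chosen with earlier results of these data known, so the contrast with all genes is a description only. Jun gave 8.05, 7.72, 7.77 and 8.47 in knockouts 1 to 4, against 7.12, 6.79, 6.96 and 7.02 in wild types 1 to 4. All knockouts were above all wild types, with a difference of 1.03 (SE 0.16, adjusted p = 0.0056 in limma). Fosb rose by 0.85, Fosl1 by 0.80 and Ets1 by 0.71, all 3 being transcription factors induced by growth factor signals, while Junb (-0.059) and Fos (0.28) did not pass. Elf3, an epithelial Ets factor, had the lowest difference of the list, -0.47 (adjusted p = 0.13), and passed as lower without wild-type array 4 (adjusted p = 0.038) and with the fibroblast markers as a covariate (-0.69, adjusted p = 0.044). The count of rises was 4 without knockout array 1, knockout array 2 or wild-type array 3, and 5 without knockout array 4. It was also 4 without wild-type arrays 3 and 4 together. Keratinocyte markers averaged higher on the knockout arrays, but not all of them moved. Of 7, 4 were called as higher and 0 as lower (2 as higher without wild-type arrays 3 and 4). Of the 7 differences 5 were above 0 and 2 below, the lowest at -0.17. Krt1, Krt10 and Trp63 did not pass. The count of keratinocyte markers called as higher was 1 without knockout array 2. It was 2 without knockout array 1, 3 or 4 or wild-type array 2 or 3. Over all genes the count called as higher also fell, from 1277 with all arrays. It was 681, 426, 591 and 996 without knockout arrays 1, 2, 3 and 4. Without wild-type array 2 it was 742, without array 3 it was 546, and without arrays 3 and 4 it was 591. The part of cell composition in the values of both lists was not tested.

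Inhibitors of metalloproteinases gave 0 calls of 8 in limma, and 0 had an unadjusted p below 0.05. Their median difference was -0.15 with all arrays and 0.070 without wild-type arrays 3 and 4, so its sign rests on those arrays. Timp2, the inhibitor that also docks the Mmp2 precursor onto Mmp14, gave 6.24, 6.46, 6.33 and 6.21 in knockouts 1 to 4, against 5.84, 5.93, 6.18 and 7.08 in wild types 1 to 4. Wild-type array 4 was the highest of all 8 arrays and the other 3 wild types were the lowest. The difference was 0.052 (SE 0.23, adjusted p = 0.91 in limma) with all arrays and 0.43 (adjusted p = 0.083) without wild-type arrays 3 and 4. With the fibroblast markers as a covariate it was 0.50 (SE 0.13, adjusted p = 0.047) and passed. Reck, a membrane-anchored inhibitor, was also highest on wild-type array 4, at 3.35 to 3.76 in knockouts and at 3.46, 3.59, 3.89 and 5.98 in wild types 1 to 4, with an adjusted p of 0.41. Timp4 had the smallest p of the list, with a difference of -0.39 (adjusted p = 0.31).

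Among 12 activators and docking partners Cd44 rose and 0 fell, a share close to the 8.75% of all genes called in either direction. Cd44, the hyaluronan receptor that holds Mmp9 and Mmp14 at the cell surface, gave 9.34, 9.45, 9.39 and 9.02 in knockouts 1 to 4, against 8.60, 8.60, 8.39 and 7.96 in wild types 1 to 4. The groups did not overlap, and the difference of 0.91 (SE 0.16, adjusted p = 0.0084 in limma) passed in each of the 8 fits that omit 1 array. Furin, the convertase that activates Mmp14, Mmp11 and Mmp28, gave 7.58, 7.85, 7.46 and 7.58 in knockouts 1 to 4, against 7.42, 7.35, 7.36 and 6.92 in wild types 1 to 4. Its groups did not overlap either, but its difference of 0.36 (SE 0.13) had an adjusted p of 0.12. Cma1 and Tpsb2, also without overlap, lay lower in the knockout. Their differences were -1.24 (SE 0.53, adjusted p = 0.18 in limma) and -1.31 (SE 0.52, adjusted p = 0.15), and both were highest on wild-type array 4. Of the 12 differences 4 were above 0 and 8 below, with a median of -0.17. Without wild-type arrays 3 and 4, 2 of the 12 rose (Cd44 and Plat) and 1 fell (Tpsb2), where 4.64% of all genes passed.

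Matrix proteins that these enzymes cut or bind gave 5 rises and 0 falls among 14 measured, beside 6.41% of all genes called as higher and 2.34% as lower. Earlier results of these data were known when this list was chosen. Tnc, the wound matrix protein tenascin C, rose by 1.97 (SE 0.33, adjusted p = 0.0074 in limma), and the laminin chains Lamb3 and Lama3, which anchor keratinocytes to the basement membrane, rose by 1.22 and 1.04. The membrane collagen Col17a1 rose by 1.19 and the anchoring fibril collagen Col7a1 by 0.58. The fibrillar collagen genes Col1a1 (-1.93), Col1a2 (-1.74) and Col3a1 (-2.24) did not pass (adjusted p of 0.14 to 0.21), and their wild-type values were high on arrays 3 and 4. Without wild-type array 1, Col1a1 passed as lower (adjusted p = 0.044). The count of rises was 3 without knockout array 2 and 5 without wild-type arrays 3 and 4. Over all genes 426 and 591 were called as higher in these fits, against 1277 with all arrays.

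Of 10 measured cytokines and receptors that induce metalloproteinases elsewhere, 2 rose and 0 fell, beside 6.41% of all genes called as higher and 2.34% as lower. They were the EGF receptor ligands Ereg (2.10, SE 0.38, adjusted p = 0.0099 in limma) and Hbegf (0.93, SE 0.18, adjusted p = 0.014). The inflammatory inducers Il1a (-0.077), Il1b (0.078), Il6 (0.13), Tnf (0.069) and Il17a (-0.047) had adjusted p-values of 0.60 to 0.84. Tgfb1, a cytokine that raises matrix synthesis, lay higher on every knockout than on any wild-type array, at a difference of 0.35 (adjusted p = 0.061).

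**Figure D4:**
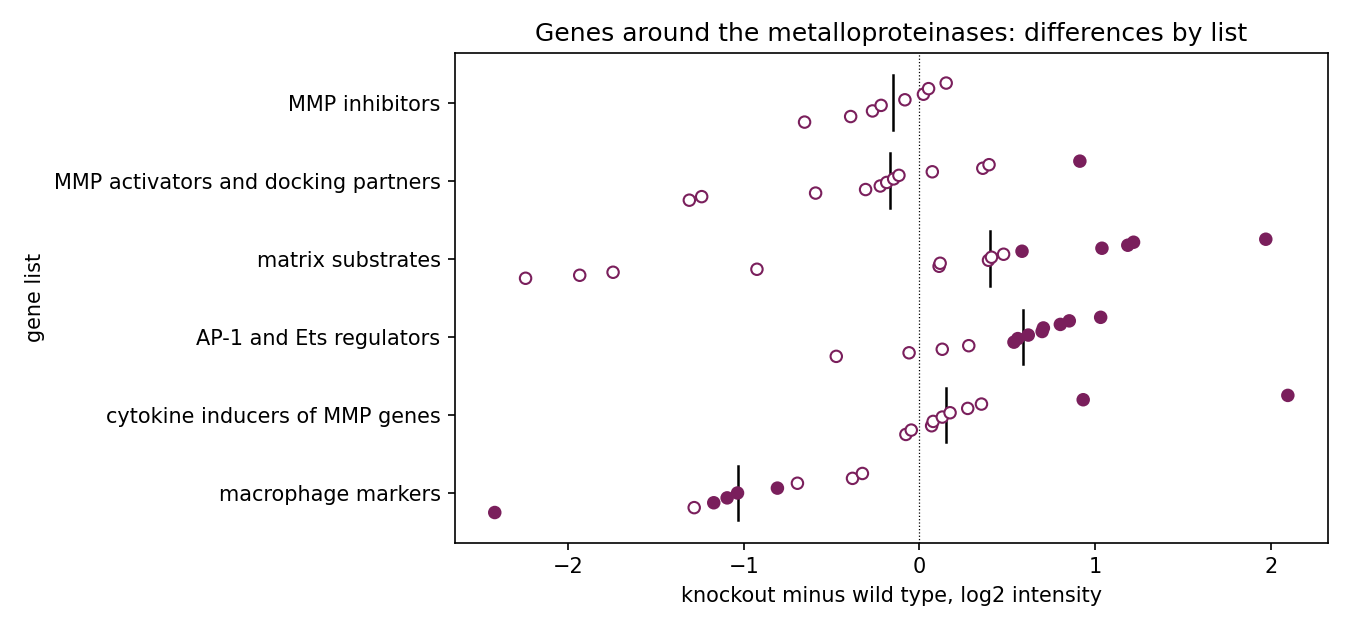
Difference between knockout and wild type in log2 intensity (horizontal axis) for each measured gene of 6 lists around the metalloproteinases, with filled points for an adjusted p below 0.05 and a vertical bar at each list's median. Filled points lie right of 0 for AP-1 and Ets factors (8 of 12), matrix substrates (5 of 14), cytokine inducers (2 of 10) and activators (1 of 12). They lie left of 0 for macrophage markers (5 of 9), and inhibitors have 0 of 8. Of all genes 6.41% were called as higher and 2.34% as lower.

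The genes whose values were most like those of Mmp14 were found by the root mean square difference of values centred over the 8 arrays, among all genes outside the family. They were F2r, the thrombin receptor (0.062), Wdr6, a WD repeat protein (0.070), and Pimreg, a mitotic regulator (0.077). F2r gave 6.78, 6.95, 6.93 and 6.89 in knockouts 1 to 4, against 6.18, 6.26, 6.22 and 6.74 in wild types 1 to 4. Like Mmp14 it was highest among the wild types on array 4. These genes were chosen for their likeness, so their differences are a description only.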

How the data were processed

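The authors deposited 1 intensity per probe set and array for 35519 probe sets, made with RMA (robust multi-array average: background correction, normalization between arrays, probe summary) per the submitters' processing notes. Its version and settings, and a genome build, are named by none of these notes. The deposited intensities ran from 0.817 to 11173, so they were read as linear, and log2 was taken with no pseudocount. Exactly 1 gene symbol was given for 21780 probe sets, several for 1605 and none for 12134. Of several probe sets per gene the one with the highest mean was kept, which left 19935 genes. Samples were grouped by the genotype label.

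Genotypes were compared in limma 3.58.1 under R 4.3.3 (lmFit, eBayes, two-sided, Benjamini-Hochberg). Tested on simulated data for all 19935 genes, of which 200 were changed, the fit found 38% of log2 changes of 0.5 and 86% of those of 1, and 5 of its 166 calls were false. The simulated noise was independent between genes and arrays, with the same SD in both genotypes and no outlying array. These rates therefore need not hold for the real arrays. Arrays give no depth, and their number limits the precision. The members and the 15 companion lists (137 of 142 entries measured) were chosen with earlier results of these data known. All members are named, and from a list up to 4 genes that passed in a direction, or the smallest p where none did. Col7a1, Csf1r and the list genes named without passing were picked with their values in view. The planned search of protein sequences was not run. Alternatives were other scalings, filters, priors, weights, thresholds, covariates and arrays left out.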

Additional observations from a re-analysis of the deposited data

Results flagged for a closer look

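In groups of 4 arrays, 7 of the 74 groups looked at held an array whose gap to the nearest of the others was, as a share of the group's range, above Dixon's 95% critical value. Chance gives about 1 in 20 for unselected, independent groups. The groups here were those of members, checks and called genes on the same 8 arrays, so that rate need not hold. The share over all genes was not counted. In the family, Mmp11 on knockout array 4 was 4.33, against 4.63 to 4.64 on the other knockouts, and Mmp3 on wild-type array 3 was 1.66, against 2.41 to 2.44 on the other wild types. Wild-type array 3 also held the lowest Adam10 of its group, 7.06 against 7.33 to 7.39. Wild-type array 4 was low for Lama3 (5.20, others 6.02 to 6.17), Ets2 (8.36, others 9.08 to 9.15) and Krt5 (11.75, others 12.03 to 12.07). Tnc on wild-type array 1 was 6.41, against 5.13 to 5.31 on the other wild types.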

How the results depend on the processing

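No paired analysis was possible because the labels give the groups no shared replicate numbers. Of 9 measured members, 1 was called in the main setting. The count was 2 after quantile normalization (Mmp12 and Mmp14) and among genes at or above the median level (Mmp2 and Mmp14), 3 with array weights and at a threshold of 0.10 (Mmp2, Mmp12 and Mmp14), 0 at a threshold of 0.01, and 0 to 2 with 1 array left out. Over all genes 1744 passed. The count was 3621 with array weights, 478 at 0.01, 2958 at 0.10, 925 without wild-type arrays 3 and 4, 1156 with fibroblast markers as covariate, and 587 to 1997 with 1 array left out, lowest without knockout array 2. Of the called genes 73.2% were higher, against 56.5% after quantile normalization and 50.8% after cyclic loess. The Adam10 difference of -0.36 was not called in the main setting (adjusted p = 0.064 in limma). It passed after quantile normalization (-0.49) and cyclic loess (-0.52) and on log2 of the value plus 16 (-0.32). At -0.36 it also passed with both filters on dim genes, a trended and robust prior and the threshold of 0.10. It did not pass after median centring (-0.31), with the mean of all probe sets, with array weights (-0.26) or at the threshold of 0.01. Nor did it pass with the Y genes (-0.35) or the fibroblast markers (-0.38) as covariate, or without wild-type arrays 3 and 4 (-0.44). With 1 array left out it ran from -0.43 to -0.32, with adjusted p-values of 0.058 to 0.15 in limma. The exact permutation test of the same -0.36 gave an unadjusted p of 0.0286. Differences near 0 changed sign, with the cause not tested. Mmp10 was -0.024 with array weights, -0.081 without wild-type arrays 3 and 4 and -0.11 with the fibroblast covariate. Mmp11 was 0.037 with array weights. Mmp28 was 0.036 after quantile normalization, 0.011 after median centring, 0.0053 after cyclic loess, 0.11 with array weights, 0.042 without wild-type arrays 3 and 4 and 0.11 with the fibroblast covariate. With 1 array left out, Mmp9 ran from -0.20 to 0.042, Mmp10 from -0.060 to 0.13, Mmp11 from -0.086 to 0.021 and Mmp28 from -0.14 to 0.078. Mmp2, Mmp3, Mmp12, Mmp13 and Mmp14 kept their direction in every alternative that tested them. The filters on dim genes dropped some members, so these have no value there.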

Other observations

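Outside the comparisons above, the marker lists of other tissues showed how the skin samples differ. Skeletal muscle markers averaged 2.60 above their mean over the 8 arrays on wild-type array 4 and 0.64 above it on wild-type array 3, adipocyte markers 3.22 above it on wild-type array 4, and endothelial markers 2.05 above it there. In limma 0 of 9 muscle, 0 of 6 adipocyte and 0 of 7 endothelial markers passed, with 1, 0 and 0 at an unadjusted p below 0.05. The smallest p belonged to Acta1 (-2.40, adjusted p = 0.15), Fabp4 (-2.23, adjusted p = 0.21) and Vwf (-0.27, adjusted p = 0.24). Bone and cartilage markers, where Mmp13 is also made, gave 0 calls of 5, 1 of them (Sp7, -0.20, adjusted p = 0.20) at an unadjusted p below 0.05. Of 8 hair matrix and sheath markers 1 rose and 0 fell, beside 6.41% of all genes called as higher. Of the 8 differences 3 were above 0 and 5 below, from -0.68 to 0.61, with a median of -0.050. The gene that rose was Lef1 (0.61, adjusted p = 0.040 in limma). Lef1 lost its call in 5 of the 8 fits with 1 array left out and without wild-type arrays 3 and 4. The 4 keratinocyte markers that rose were Itga6 (1.33), Dsg3 (1.17), Krt14 (0.63) and Krt5 (0.37), and Krt5 kept its call in 1 of the 8 fits with 1 array left out.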
